A study of Mus musculus with 19 samples.

Results

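The 7 genes described here are grouped as CHOP, tribbles and eIF2 phosphatase genes linked to feedback in the integrated stress response (ISR). They are Ddit3, which encodes the transcription factor CHOP, Nupr1, the tribbles genes Trib1, Trib2 and Trib3, and Ppp1r15a and Ppp1r15b. The products of Ppp1r15a and Ppp1r15b steer a phosphatase to the translation factor eIF2. The 7 genes were chosen by name, with earlier results of these data known, and all 7 were found among the 55401 gene identifiers in the files. RNA of C2C12 cells, an immortalised mouse myoblast line, was sequenced in 19 libraries. All groups were wild type in genotype and grown in the same serum-containing medium. Thapsigargin at 100 nM, an inhibitor of the calcium pump of the endoplasmic reticulum (ER), was given for 2 h (3 libraries), 6 h (3 libraries) or 12 h (2 libraries), against its vehicle DMSO for 2 h (3 libraries), 6 h (3 libraries) or 12 h (2 libraries). A recovery group of 3 libraries had 6 h of thapsigargin and then 48 h in medium without it. No vehicle libraries match the recovery group in total time, and the effects of recovery and of longer culture cannot be told apart. Nothing in the labels states that replicates came from separate cultures, and without that p-values describe the spread between these libraries, part of which may be technical.

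In the ISR, kinases such as PERK phosphorylate eIF2, which slows protein synthesis in general while raising translation of the transcription factor ATF4. ATF4, often paired with a C/EBP family partner, switches on CHOP, and both act on a second tier of genes. The products of that tier include brakes: GADD34 (Ppp1r15a) brings protein phosphatase 1 to eIF2 and restores translation, its relative CReP (Ppp1r15b) does the same in unstressed cells, and the pseudokinase TRIB3 binds ATF4 and CHOP and dampens their activity. TRIB1 and TRIB2 are known above all for bringing C/EBP-alpha to the ubiquitin ligase COP1. NUPR1 is a small, disordered chromatin protein that many stresses induce.

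Libraries held between 17.31 and 40.96 megareads assigned to genes. Mitochondrial genes took 14.9% of gene reads in recovery replicate 1 and 15.8% in DMSO 2 h replicate 3, against 1.41% to 3.07% in the other libraries. Of 7 myoblast markers, Myod1, Myf5, Des, Cdh15, Myog and Vim had reads in 19 of 19 libraries and Pax7 in 18. The 7 summed to 5940 to 10411 CPM (counts per megaread of scaled library size) with thapsigargin at 6 h, against 12610 to 18128 CPM with DMSO at 6 h, and to 1969 to 2156 CPM with thapsigargin at 12 h, against 4944 to 5003 CPM with DMSO at 12 h. The sums were thus lower with thapsigargin at both times without overlap. At 2 h the sums of 6682 to 6902 CPM with thapsigargin lay within the 6583 to 8683 CPM with DMSO. Over the 19 libraries the median was 6488 CPM for Vim and 1103 CPM for Des, against 343 CPM for Cdh15 and 90.6 CPM for Myod1. The myoblast sums thus mostly reflect Vim and Des, and groups were not compared for single markers. The macrophage marker Adgre1 and the epithelial marker Epcam had no reads in any library. Of the other types, 4 epithelial markers summed to 13.3 to 24.3 CPM with thapsigargin at 6 h, against 0.685 to 2.61 CPM with DMSO at 6 h. Likewise 4 adipocyte markers summed to 52.0 to 72.5 CPM with thapsigargin at 6 h, against 10.6 to 18.2 CPM with DMSO, and 4 endothelial markers to 2.64 to 4.79 CPM with thapsigargin, against 0.514 to 0.610 CPM with DMSO. Macrophage markers, 5 in number, were lower, at 4.13 to 5.64 CPM with thapsigargin at 6 h, against 6.66 to 9.49 CPM with DMSO. Over the 19 libraries Pparg reached 72.1 CPM and the other adipocyte markers at most 1.61 CPM (Fabp4). Cd68 reached 10.5 CPM and the other macrophage markers at most 0.614 CPM (Csf1r). The adipocyte and macrophage sums thus mostly reflect Pparg and Cd68. Among epithelial markers Krt8 reached 13.9 CPM, Krt18 10.6 CPM and Cdh1 1.55 CPM. The part of these markers in the results at 6 and 12 h was not tested. In bulk RNA, fewer cells of a type and less RNA per cell cannot be told apart.

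On GRCm38, the assembly also called mm10, Ddit3 (ENSMUSG00000025408.15) lies at chr10:127290774-127296288 on the plus strand and Nupr1 (ENSMUSG00000030717.9) at chr7:126623249-126630861 on the minus strand. Trib1 (ENSMUSG00000032501.9) lies at chr15:59648350-59657099 on the plus strand, Trib2 (ENSMUSG00000020601.8) at chr12:15791727-15816922 on the minus strand and Trib3 (ENSMUSG00000032715.9) at chr2:152337422-152344032 on the minus strand. Ppp1r15a (ENSMUSG00000040435.12) lies at chr7:45522916-45526268 on the minus strand and Ppp1r15b (ENSMUSG00000046062.5) at chr1:133131143-133139783 on the plus strand. The longest coding mRNA models have 890 bases for Ddit3 and 829 for Nupr1, against 2026 for Trib3, 2809 for Ppp1r15a, 4198 for Trib2, 4330 for Trib1 and 5594 for Ppp1r15b. Libraries differed in how long and short mRNAs were represented, so these lengths matter to the values. A second GENCODE model also named Ddit3 (ENSMUSG00000116429.1) covers 105 of the 1713 exon bases of Ddit3 on the same strand and has 0 counts in all 19 libraries, so reads over those bases may be missing from the Ddit3 counts. On the other strand, Mars shares 68 exon bases with Ddit3, Tulp2 shares 12 with Ppp1r15a, and Gm26616, which has 0 to 63 counts a library, shares 640 of the 5594 exon bases of Ppp1r15b. Whether counting used strand is not given in the sources used here, so reads over those bases cannot be assigned to a strand.

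Promoter sequence was read from the RefSeq table of GRCm38.p6, in which 5 of the 7 genes matched (Ddit3, Nupr1, Trib2, Trib3 and Ppp1r15a). The 4 inducible genes are shown because they moved together in the drug comparisons, and capitals mark matches to 3 stress-response motifs searched on both strands. Ddit3 (chr10:127290543-127290792, plus strand), Trib3 (chr2:152344061-152344310, minus strand) and Ppp1r15a (chr7:45526269-45526518, minus strand) are given as the 250 bases before the RefSeq start. Nupr1 (chr7:126625567-126625586, minus strand) and a stretch just after the RefSeq start of Trib3 (chr2:152344033-152344052, minus strand) are given as 20 bases around a match.
Ddit3 promoter: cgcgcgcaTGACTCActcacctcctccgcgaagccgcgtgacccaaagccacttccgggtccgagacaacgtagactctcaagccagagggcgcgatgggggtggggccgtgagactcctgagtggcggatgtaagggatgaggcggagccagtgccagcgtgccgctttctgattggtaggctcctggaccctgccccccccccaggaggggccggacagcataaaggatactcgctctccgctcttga
Trib3 promoter: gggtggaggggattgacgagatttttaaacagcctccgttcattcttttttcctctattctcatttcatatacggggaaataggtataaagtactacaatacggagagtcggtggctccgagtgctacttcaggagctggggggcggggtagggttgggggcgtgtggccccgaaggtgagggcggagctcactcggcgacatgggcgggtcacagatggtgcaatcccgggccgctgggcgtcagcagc
Ppp1r15a promoter: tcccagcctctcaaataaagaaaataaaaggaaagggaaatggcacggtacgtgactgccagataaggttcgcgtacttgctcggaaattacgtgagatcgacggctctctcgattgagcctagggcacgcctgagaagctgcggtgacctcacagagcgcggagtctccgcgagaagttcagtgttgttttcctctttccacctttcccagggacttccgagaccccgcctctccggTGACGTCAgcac
Nupr1 site: gccagaTTGCATCAgacagg
Trib3 site: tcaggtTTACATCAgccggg

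The core of the C/EBP-ATF response element (CARE), the composite site that ATF4 and its C/EBP partners read, was searched as TGATGNAA. On the opposite strand it stood in Nupr1 at position -110 from the start and in Trib3 at position 15 after it. The Trib3 match lies upstream of the start of the GENCODE model, and the Nupr1 match lies within an exon of some longer GENCODE transcripts. Of all 32851 promoters of the table, 3.45% hold this core in the 250 bases before the start and 3.97% in the window that also includes 50 bases from the start on. The cyclic AMP response element TGACGTCA stood in Ppp1r15a at position -12 and is held by 1.55% of promoters before the start. The AP-1 site TGANTCA stood in Ddit3 at position -242 and is held by 6.75%. The ER stress response element (0.113% of promoters) had no exact match in the 5 genes, and no match to any of these 4 motifs was found in the Trib2 window. Near matches, with letters changed, were not searched for. Of 2 general promoter motifs, TATAAA (12.4% of promoters) stood in Trib3 at position -166 and in Ppp1r15a at position 16, and CCAAT (33.9% of promoters) stood in Ddit3 at position -77 on the opposite strand. The Ddit3 match at position -77 lies in a stretch that differs from the ER stress response element by a single letter. The absence of an exact match thus does not show that Ddit3 lacks such an element. No 2 of the exact matches named overlapped, and a match is a description of letters only.

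**Figure D1:**
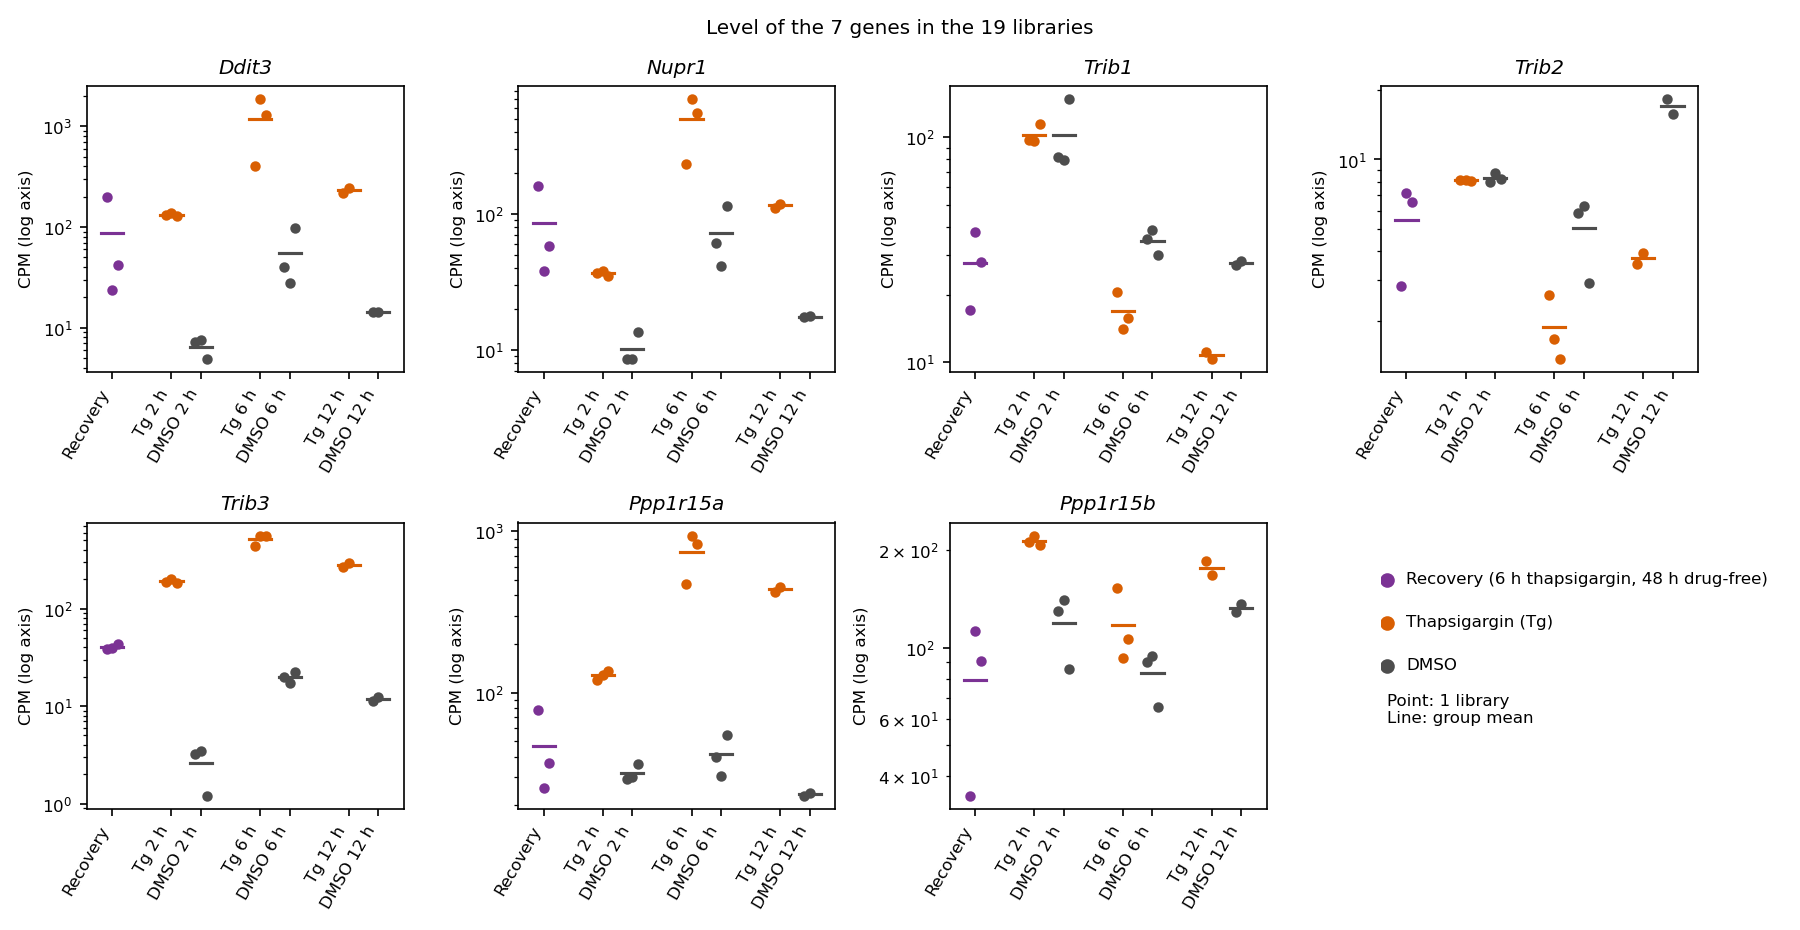
Level of each gene in counts per megaread (CPM, log axis) in the 19 libraries, by group, with 1 point per library and a line at the group mean. Ddit3, Nupr1, Trib3 and Ppp1r15a stand highest with thapsigargin at 6 h, while Trib1 and Trib2 stand lower with thapsigargin than with DMSO at 6 and 12 h.

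Set per kilobase of mRNA, the order of the 7 genes differed between thapsigargin and DMSO at 6 h, and also between DMSO at 6 h and at 2 h. On the RPKM scale (CPM per kilobase of the longest coding mRNA), levels with thapsigargin at 6 h were 1336 ± 827 for Ddit3, 595 ± 286 for Nupr1, 266 ± 87.3 for Ppp1r15a and 257 ± 34.3 for Trib3 (SD, n = 3). With DMSO at 6 h the same genes had 61.7 ± 41.2 (Ddit3), 86.5 ± 44.8 (Nupr1), 14.8 ± 4.29 (Ppp1r15a) and 9.81 ± 1.34 RPKM (Trib3). Ddit3 and Nupr1 thus had the highest means in both 6 h groups. With DMSO at 2 h the same genes had 7.28 ± 1.61 (Ddit3), 12.2 ± 3.42 (Nupr1), 11.3 ± 1.38 (Ppp1r15a) and 1.29 ± 0.608 RPKM (Trib3). Trib1 stood at 3.89 ± 0.771 RPKM with thapsigargin at 6 h, 8.02 ± 1.02 RPKM with DMSO at 6 h and 23.8 ± 9.01 RPKM with DMSO at 2 h. Trib3 had the lowest mean RPKM of the 7 with DMSO at 2 h, and Trib1 the highest, close to Ppp1r15b with 21.2 ± 5.19 RPKM. By library Trib1 had 18.8, 18.3 and 34.2 RPKM there, and Ppp1r15b 23.2, 25.1 and 15.3 RPKM. The top place of Trib1 on this scale thus rests on replicate 3, a library of high mitochondrial share. None of these RPKM values is adjusted for the length trend described below, which is positive where long mRNAs were better represented. The trend was 0.669 to 1.18 with DMSO at 2 h and -1.39 to -0.657 with DMSO at 6 h. The orders of genes of unlike length, and their changes between times, are thus sensitive to it. Ppp1r15b stood at 21.01 ± 5.67 RPKM with thapsigargin at 6 h, against 14.9 ± 2.76 RPKM with DMSO at 6 h, level there with Ppp1r15a. Trib2 was low in every group, with group means of 0.447 to 4.06 RPKM.

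Thapsigargin raised 4 of the 7 genes at all 3 times: Ddit3, Nupr1, Trib3 and Ppp1r15a. At 2 h no member fell, while at 6 and 12 h Trib1 and Trib2 fell, and Ppp1r15b passed the test at no time. A gene was called at a Benjamini-Hochberg adjusted p under 0.05 in edgeR's quasi-likelihood test over 18039 genes. At 2 h the members called were 4 of 7, all higher, beside 4.52% of all genes called (3.01% higher). At 6 h they were 6 of 7, with 4 higher and 2 lower, beside 21.8% of all genes (13% higher and 8.79% lower), and at 12 h again 6, with 4 higher and 2 lower, beside 13.1% (6.29% higher and 6.77% lower). The CPM ranges of the groups did not overlap for 5 members at 2 h, 6 at 6 h and 7 at 12 h, beside 38.5%, 37.5% and 73.1% of all genes. The median log2 difference of the 7 was 1.84 at 2 h and 2.78 at 6 h, against -0.04 and 0.01 over all genes.

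**Figure D2:**
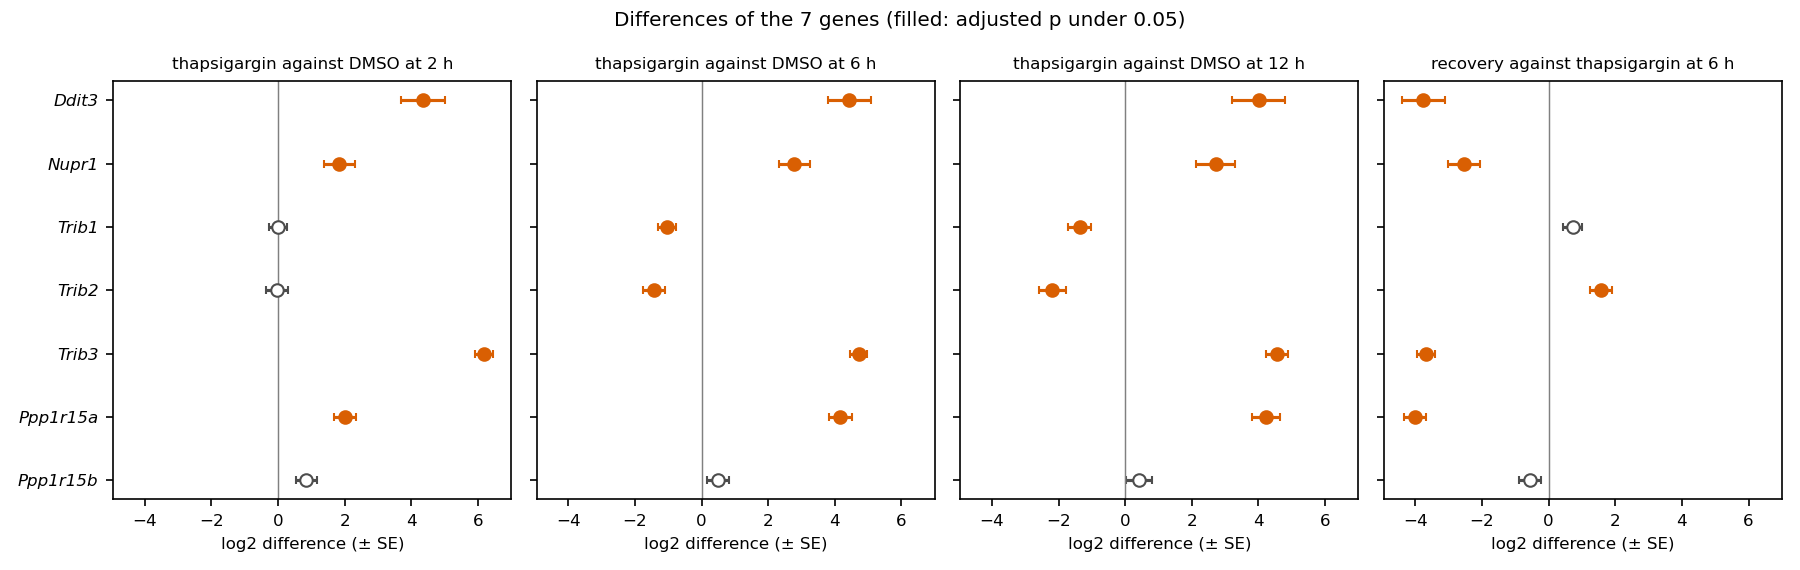
Log2 difference with its standard error (SE) for each gene in 4 comparisons, from edgeR's fit, with filled points where the adjusted p was under 0.05. Trib3 at 2 h (6.19 ± 0.27) is the largest difference, and after recovery the signs of the called genes are turned round.

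Ddit3 encodes CHOP, a C/EBP-family factor that pairs with other C/EBP proteins and is a marker of prolonged ER stress. At 2 h it stood at 130, 137 and 129 CPM in the thapsigargin libraries, against 7.15, 7.44 and 4.83 CPM in the DMSO libraries. The thapsigargin values lay close together and far above DMSO, a 20.4-fold difference (log2 difference 4.35 ± 0.65, SE, adjusted p = 0.00261, edgeR). At 6 h the values were 407, 1869 and 1291 CPM with thapsigargin, against 40.0, 28.0 and 96.7 CPM with DMSO. The groups did not overlap, but thapsigargin replicate 1 was the lowest of its group and DMSO replicate 3 the highest of its own (4.44 ± 0.64, adjusted p = 0.000422). At 12 h Ddit3 had 216 and 246 CPM with thapsigargin and 14.4 and 14.3 CPM with DMSO, again without overlap (4.01 ± 0.79, adjusted p = 0.00588). The call at 12 h ended without DMSO 12 h replicate 1 (adjusted p = 0.074) or replicate 2 (adjusted p = 0.0722). By mean CPM, not adjusted for the length trend described below, the order ran thapsigargin at 6 h, 12 h and 2 h, recovery, then DMSO at 6 h, 12 h and 2 h. Of neighbours in that order, recovery overlapped thapsigargin at 2 h and DMSO at 6 h.

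Nupr1, the chromatin protein, moved like Ddit3 but over a narrower range. At 2 h it had 36.4, 37.9 and 34.6 CPM with thapsigargin, against 8.48, 8.56 and 13.4 CPM with DMSO. The groups did not overlap, and the 3.58-fold difference (1.84 ± 0.47, adjusted p = 0.043) lost its call when any 1 of the 6 libraries was left out (adjusted p between 0.0673 and 0.135), with DESeq2 size factors (adjusted p = 0.0613) and with the replicate block (adjusted p = 0.0659). At 6 h thapsigargin libraries held 234, 698 and 548 CPM, and DMSO libraries 60.6, 41.4 and 113 CPM. As with Ddit3, thapsigargin replicate 1 was the lowest of its group and DMSO replicate 3 the highest of its own (2.78 ± 0.47, adjusted p = 0.00083). At 12 h the values were 111 and 119 CPM with thapsigargin, against 17.3 and 17.7 CPM with DMSO (2.72 ± 0.58, adjusted p = 0.007). These groups lay apart, but the call ended without DMSO 12 h replicate 1 (adjusted p = 0.0774) or replicate 2 (adjusted p = 0.0722). The order of Nupr1 was taken by mean CPM, not adjusted for the length trend described below. Nupr1 was highest with thapsigargin at 6 h, followed by thapsigargin at 12 h, recovery and DMSO at 6 h. Recovery overlapped thapsigargin at 12 h and DMSO at 6 h, and Nupr1 was lowest with DMSO at 2 h. The trend was negative in all recovery and DMSO 6 h libraries and positive in all thapsigargin 2 h libraries. The placing of recovery and DMSO at 6 h above thapsigargin at 2 h is thus sensitive to it.

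Trib3, the tribbles gene that ATF4 and CHOP are known to induce, showed the largest early difference of the 7. At 2 h it stood at 189, 203 and 182 CPM with thapsigargin, against 3.20, 3.44 and 1.20 CPM with DMSO. That is a 73.0-fold difference between groups that lay far apart (6.19 ± 0.27, adjusted p = 3.26e-08). At 6 h it had 440, 562 and 559 CPM with thapsigargin, against 19.96, 17.1 and 22.5 CPM with DMSO (4.71 ± 0.27, adjusted p = 8.86e-08). At 12 h it had 265 and 293 CPM with thapsigargin, against 11.4 and 12.5 CPM with DMSO (4.55 ± 0.33, adjusted p = 1.07e-06). Its libraries within a group differed less than those of Ddit3 at 6 h, and no neighbouring groups in its order of means overlapped: thapsigargin at 6 h, 12 h and 2 h, recovery, then DMSO at 6 h, 12 h and 2 h. The calls of Trib3 at 2, 6 and 12 h held under every alternative run.

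Trib1 and Trib2, whose proteins mark C/EBP-alpha for destruction, did not follow Trib3. At 2 h Trib1 had 97.2, 96.7 and 114 CPM with thapsigargin, against 81.5, 79.2 and 148 CPM with DMSO. These ranges overlapped and the log2 difference was -0.0016 ± 0.27 (adjusted p = 1). The overlap rests on DMSO replicate 3, a library of high mitochondrial share, without which the difference was 0.35 and not called (adjusted p = 0.598). At 6 h Trib1 had 20.6, 14.1 and 15.8 CPM with thapsigargin, against 35.4, 38.7 and 30.0 CPM with DMSO. All 3 thapsigargin values lay below all DMSO values, a 2.06-fold fall (-1.04 ± 0.28, adjusted p = 0.0128), whose call ended without thapsigargin 6 h replicate 2 (adjusted p = 0.0561) or replicate 3 (adjusted p = 0.0502). At 12 h the level fell to 11.2 and 10.3 CPM with thapsigargin, against 27.2 and 28.1 CPM with DMSO (-1.37 ± 0.34, adjusted p = 0.0146). The 2.58-fold difference had no overlap, but leaving out any 1 of the 4 libraries ended its call (adjusted p between 0.0738 and 0.129). Scaling by total counts in place of TMM also ended the calls of Trib1 at 6 h (adjusted p = 0.149) and 12 h (adjusted p = 0.12).

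Trib2 had 8.17, 8.11 and 8.10 CPM with thapsigargin at 2 h, against 8.01, 8.75 and 8.24 CPM with DMSO. These values overlapped (-0.04 ± 0.33, adjusted p = 0.984). At 6 h it had 2.60, 1.67 and 1.36 CPM with thapsigargin, against 5.89, 6.29 and 2.93 CPM with DMSO. The groups lay apart by a small margin set by DMSO replicate 3 (-1.42 ± 0.34, adjusted p = 0.00632, and 0.0779 with total-count scaling). At 12 h it had 3.52 and 3.93 CPM with thapsigargin, against 18.3 and 15.8 CPM with DMSO. This 4.58-fold difference was the largest fall of any member against DMSO (-2.19 ± 0.41, adjusted p = 0.00201). Trib1 was highest at 2 h in both arms, where DMSO and thapsigargin overlapped, whereas Trib2 was highest with DMSO at 12 h. At the low end of the orders, Trib1 stood lowest with thapsigargin at 12 h and Trib2 lowest with thapsigargin at 6 h.

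Ppp1r15a encodes GADD34, the stress-induced subunit that brings protein phosphatase 1 to eIF2. At 2 h it had 119, 129 and 135 CPM with thapsigargin, against 29.1, 29.9 and 36.2 CPM with DMSO. The groups lay apart, a 4.02-fold rise (2.01 ± 0.34, adjusted p = 0.00314). At 6 h the values were 471, 940 and 827 CPM with thapsigargin, against 39.9, 30.5 and 54.4 CPM with DMSO. Replicate 1 was the lowest of the thapsigargin libraries, as for Ddit3 and Nupr1, but lay far above DMSO (17.9-fold, 4.17 ± 0.34, adjusted p = 1.62e-06). At 12 h Ppp1r15a stood at 423 and 449 CPM with thapsigargin, against 22.9 and 23.8 CPM with DMSO (18.7-fold, 4.22 ± 0.41, adjusted p = 1.64e-05). The 3 thapsigargin groups followed each other without overlap at 6 h, 12 h and 2 h, and recovery overlapped DMSO at 6 h.

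Ppp1r15b encodes CReP, the subunit that serves the same phosphatase in unstressed cells. At 2 h it had 212, 222 and 208 CPM with thapsigargin, against 130, 141 and 85.8 CPM with DMSO. The ranges did not overlap, yet the 1.80-fold difference did not pass the test (0.85 ± 0.32, adjusted p = 0.176). It passed with transcript-length offsets (adjusted p = 0.0325), in a fit of the 2 groups alone (adjusted p = 0.0178) and without the 2 libraries of high mitochondrial share (adjusted p = 0.0315). At 6 h it had 153, 92.9 and 106 CPM with thapsigargin, against 90.0, 93.9 and 65.5 CPM with DMSO. These ranges overlapped (0.50 ± 0.32, adjusted p = 0.32), and the difference passed without the 2 libraries of high mitochondrial share, neither of them in these groups (0.47, adjusted p = 0.046). At 12 h it had 186 and 168 CPM with thapsigargin, against 129 and 136 CPM with DMSO, apart but not past the test (0.42 ± 0.40, adjusted p = 0.635). In an edgeR fit of the 2 groups alone the 12 h difference was 0.45 with an adjusted p of 3.61e-06. That fit called 8847 of 14230 genes, against 2356 of 18039 in the main fit. Across the 3 times the DMSO and thapsigargin means of Ppp1r15b stayed between 83.1 and 214 CPM, while those of Ppp1r15a spanned 23.3 to 746 CPM.

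Because both subunits act on the same substrate, their ratio within a library is of interest, and it does not depend on how libraries are scaled to each other. The count ratio of Ppp1r15a to Ppp1r15b was 0.562 to 0.649 with thapsigargin at 2 h, against 0.213 to 0.421 with DMSO. At 6 h it was 3.07 to 10.1 with thapsigargin, against 0.324 to 0.830 with DMSO, and at 12 h 2.27 to 2.68 with thapsigargin, against 0.175 to 0.177 with DMSO. The mRNAs differ in length (2809 bases for Ppp1r15a, 5594 for Ppp1r15b), and at 6 h the ratio was highest in the library of each arm where long mRNAs were least represented, thapsigargin replicate 2 (10.1) and DMSO replicate 3 (0.830). Dividing each count by a length offset per library, a setting chosen after the data were seen, gave 0.775 to 0.864 with thapsigargin at 2 h, against 0.279 to 0.626 with DMSO, 2.80 to 7.01 at 6 h, against 0.248 to 0.566, and 2.71 to 3.03 at 12 h, against 0.220 to 0.223. Ppp1r15a reads outnumbered Ppp1r15b reads with thapsigargin at 6 and 12 h but in no DMSO library. The mean log2 difference over the 3 times was 2.87 (1.13 at 2 h, 3.66 at 6 h and 3.81 at 12 h), with p = 0.000833 in an exact two-sided permutation test within times over 8 thapsigargin and 8 DMSO libraries. The ratio of Trib3 to the sum of Trib1 and Trib2 was 1.48 to 1.94 with thapsigargin at 2 h, against 0.0077 to 0.0392 with DMSO. It was 18.996 to 35.5 with thapsigargin at 6 h, against 0.380 to 0.684 with DMSO, and 18.0 to 20.6 with thapsigargin at 12 h, against 0.2496 to 0.284 with DMSO. Here the mean log2 difference was 6.09, with 6.29, 5.81 and 6.18 at the 3 times (exact two-sided permutation p = 0.000833). With length offsets the mean log2 differences were 2.86 for Ppp1r15a to Ppp1r15b and 6.12 for Trib3 to Trib1 plus Trib2, with p = 0.000833 each in the same exact permutation test. All these p-values are the smallest that 2400 permutations can give, and those of the plain ratios are 0.000833 after adjustment over the 2 ratios. Since counts are not per length, a ratio of 1 does not mean equal numbers of mRNA molecules.

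**Figure D3:**
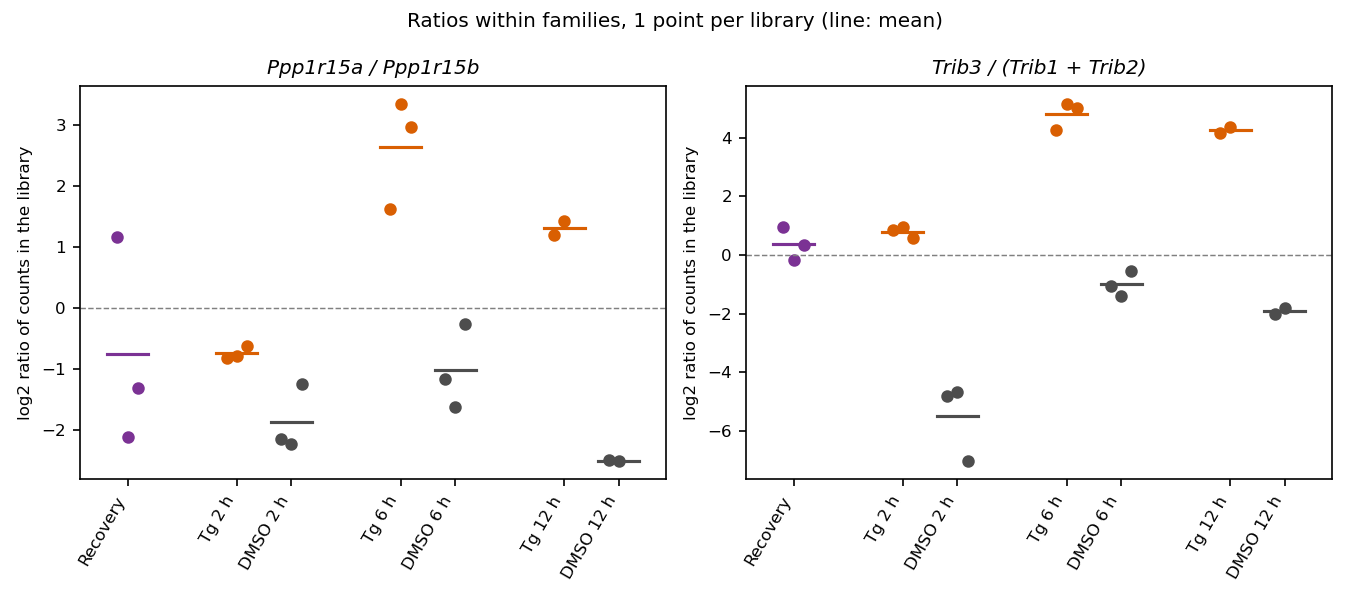
Log2 count ratio within each library for Ppp1r15a over Ppp1r15b (left) and Trib3 over the sum of Trib1 and Trib2 (right), with 1 point per library, a line at the group mean and a dashed line at equal counts. The thapsigargin points lie above the DMSO points at each of the 3 times for both ratios, and recovery replicate 1 stands apart in the left panel.

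The size of the drug effect changed between 2 and 6 h for 2 of the 7 genes, beside 3.99% of all genes called in this test of the difference in response (2.12% larger and 1.87% smaller at 6 h). For Ppp1r15a the effect was larger at 6 h than at 2 h (difference of log2 differences 2.16 ± 0.48, adjusted p = 0.0171). That call ended without thapsigargin 2 h replicate 1 (adjusted p = 0.0559), DMSO 6 h replicate 1 (adjusted p = 0.0507) or DMSO 6 h replicate 2 (adjusted p = 0.0573), and with the replicate block and length offsets together (2.26, adjusted p = 0.0546). For Trib3 the effect was smaller at 6 h (-1.48 ± 0.38, adjusted p = 0.0397), and its levels were higher at 6 h in both arms, where DMSO stood at 17.1 to 22.5 CPM at 6 h against 1.20 to 3.44 CPM at 2 h. Its call ended when any of 8 of the 12 libraries was left out (thapsigargin 2 h replicates 1, 2 and 3, thapsigargin 6 h replicates 1, 2 and 3, DMSO 6 h replicates 1 and 3, with adjusted p between 0.0664 and 0.0958), with total-count scaling (adjusted p = 0.156), with the replicate block (adjusted p = 0.0684) and in only the groups compared (adjusted p = 0.0598). For Trib1 (-1.04 ± 0.39, adjusted p = 0.174) and Trib2 (-1.39 ± 0.47, adjusted p = 0.125) the fall seen at 6 h and not at 2 h was not shown by this test to differ between the times. Both passed with length offsets (-1.03, adjusted p = 0.0403, for Trib1 and -1.36, adjusted p = 0.0204, for Trib2) and without the high-mitochondrial libraries (adjusted p = 0.00112 and 0.0244). Trib1 also passed without DMSO 2 h replicate 3 (-1.40, adjusted p = 0.0357), and Trib2 with DESeq2 (-1.35, adjusted p = 0.0278). Ddit3 had nearly the same effect at both times (0.09 ± 0.91, adjusted p = 1), with a wide SE. Between 12 and 6 h none of the 7 effects was called by edgeR or by DESeq2, beside 0.571% of all genes in edgeR (0.0388% larger and 0.532% smaller at 12 h), and no unadjusted p of the 7 was under 0.05.

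After the drug was removed, the 4 genes that had risen came down. In recovery against thapsigargin at 6 h, 5 members were called, 1 higher and 4 lower, beside 25.5% of all genes (11.6% higher and 13.9% lower). For 5 members the groups did not overlap, beside 31% of all genes. Ddit3 stood at 197, 23.8 and 41.6 CPM in recovery, against 407, 1869 and 1291 CPM with thapsigargin at 6 h. No value overlapped (-3.77 ± 0.64, adjusted p = 0.00109), although recovery replicate 1, a library of high mitochondrial share, was several times the other recovery libraries. Nupr1 had 159, 38.1 and 58.3 CPM in recovery, below all thapsigargin values at 6 h (-2.54 ± 0.47, adjusted p = 0.00141). Ppp1r15a had 77.6, 25.8 and 36.4 CPM (-4.01 ± 0.34, adjusted p = 2.03e-06). In these 3 genes recovery replicate 1 was the highest of its group, whereas Trib3 had close values of 38.3, 39.8 and 43.2 CPM (-3.69 ± 0.27, adjusted p = 4.74e-07). Trib2 had 2.82, 7.12 and 6.53 CPM in recovery, all above thapsigargin at 6 h (1.56 ± 0.34, adjusted p = 0.00306). Trib1, with 17.1, 37.8 and 27.9 CPM, overlapped thapsigargin at 6 h and was not called (0.72 ± 0.28, adjusted p = 0.0703), but passed without recovery replicate 1 (0.96, adjusted p = 0.00784), with DESeq2 (adjusted p = 0.0484) and with length offsets (adjusted p = 0.0163). Ppp1r15b had 34.7, 112 and 90.6 CPM in recovery and was not called (-0.57 ± 0.32, adjusted p = 0.223), but passed with length offsets (-0.62, adjusted p = 0.0357). In a fit of the 2 groups alone, the calls of Ddit3 (adjusted p = 0.0685), Nupr1 (adjusted p = 0.0694) and Trib2 (adjusted p = 0.107) were lost.

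Against DMSO at 6 h, edgeR called none of the 7 genes in recovery, beside 0.327% of all genes, and the unadjusted p was under 0.05 for Trib3 alone. Trib3 stood at 38.3, 39.8 and 43.2 CPM in recovery, against 19.96, 17.1 and 22.5 CPM with DMSO at 6 h. The groups did not overlap, as was so for 1 of the 7 members and 10.1% of all genes, and the 2.04-fold difference had an adjusted p of 0.153 (1.02 ± 0.27). DESeq2 called it (adjusted p = 0.00304), as did edgeR with transcript-length offsets (adjusted p = 0.0309) and without the 2 libraries of high mitochondrial share (1.03, adjusted p = 0.00339). For the other 6 genes the ranges overlapped, with log2 differences of -0.33 (Trib1) to 0.67 (Ddit3). The Ddit3 value rests on recovery replicate 1 and was -0.75 without it (adjusted p = 0.471). The ratio of Ppp1r15a to Ppp1r15b in recovery spanned 0.230 to 2.23, and that of Trib3 to Trib1 plus Trib2 spanned 0.885 to 1.92, above its DMSO values of 0.380 to 0.684 at 6 h.

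DMSO libraries of different times were not alike in these genes, nor in a large share of all genes. With DMSO at 6 h against 2 h, 4 members were called, 3 higher and 1 lower, beside 49.6% of all genes (24.6% higher and 25% lower), and for 5 the groups did not overlap, beside 61.5%. Ddit3 had 40.0, 28.0 and 96.7 CPM with DMSO at 6 h, against 7.15, 7.44 and 4.83 CPM at 2 h (3.08 ± 0.65, adjusted p = 0.00267). Nupr1 had 60.6, 41.4 and 113 CPM at 6 h, against 8.48, 8.56 and 13.4 CPM at 2 h (2.82 ± 0.47, adjusted p = 0.00068). Both genes were higher in all 6 h libraries than in any 2 h library, and so was Trib3 (2.92 ± 0.27, adjusted p = 1.4e-05). Trib1 was lower at 6 h, with 35.4, 38.7 and 30.0 CPM, against 81.5, 79.2 and 148 CPM at 2 h (-1.57 ± 0.28, adjusted p = 0.000682). Trib2 (-0.72 ± 0.33, adjusted p = 0.0788), Ppp1r15a (0.39 ± 0.34, adjusted p = 0.349) and Ppp1r15b (-0.51 ± 0.32, adjusted p = 0.199) were not called. With DMSO at 12 h against 6 h, 1 member was higher and 1 lower, beside 35.4% of all genes called (18.7% higher and 16.8% lower), and all 7 had groups without overlap, beside 71.5%. Trib2 had 18.3 and 15.8 CPM at 12 h, against 5.89, 6.29 and 2.93 CPM at 6 h (1.76 ± 0.37, adjusted p = 0.00338). Nupr1 had 17.3 and 17.7 CPM at 12 h, against 60.6, 41.4 and 113 CPM at 6 h (-2.04 ± 0.53, adjusted p = 0.0157), a call that ended without DMSO 6 h replicate 3 (adjusted p = 0.0663), DMSO 12 h replicate 1 (adjusted p = 0.106) or DMSO 12 h replicate 2 (adjusted p = 0.103). Ddit3 was not called (-1.93 ± 0.72, adjusted p = 0.0619) but passed without the low-count filter (adjusted p = 0.00537), with DESeq2 (adjusted p = 0.0281), in only the groups compared (adjusted p = 0.0355) and without the high-mitochondrial libraries (adjusted p = 0.0111).

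The shortest mRNAs of the set moved most with a length trend of the libraries. The trend is the median log2 level of genes with mRNAs of 4201 bases or more minus that of genes with 2484 bases or less, each relative to the mean over libraries. It was -0.032, -1.24 and -1.02 with thapsigargin at 6 h, -0.939, -0.657 and -1.39 with DMSO at 6 h, and -1.57, -0.141 and -0.864 in recovery, so long mRNAs were under-represented there. At 2 and 12 h it was positive in all 10 libraries, from 0.436 to 1.18. In each of these 3 groups the library with the most negative trend had the highest Ddit3 and Nupr1 level, and the library with the trend nearest 0 the lowest: thapsigargin 6 h replicates 2 and 1, DMSO 6 h replicates 3 and 2, and recovery replicates 1 and 2. In a fit with a length offset per library, the log2 difference of DMSO at 6 h against 2 h was 1.33 for Ddit3 (adjusted p = 0.00778) and 0.88 for Nupr1 (adjusted p = 0.0202), in place of 3.08 and 2.82. DMSO at 12 h against 6 h became -0.37 for Ddit3 (adjusted p = 0.473) and -0.44 for Nupr1 (adjusted p = 0.296), which ended the Nupr1 call, and Trib1 passed (-0.83, adjusted p = 0.0181). Ppp1r15b turned to 0.35 at 6 h against 2 h and to -0.09 at 12 h against 6 h. The drug effect at 6 h, compared within 1 time, was 4.75 for Ddit3 and 3.15 for Nupr1 with offsets, larger than without. Whether the trend is technical or a change in the cells was not tested.

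**Figure D4:**
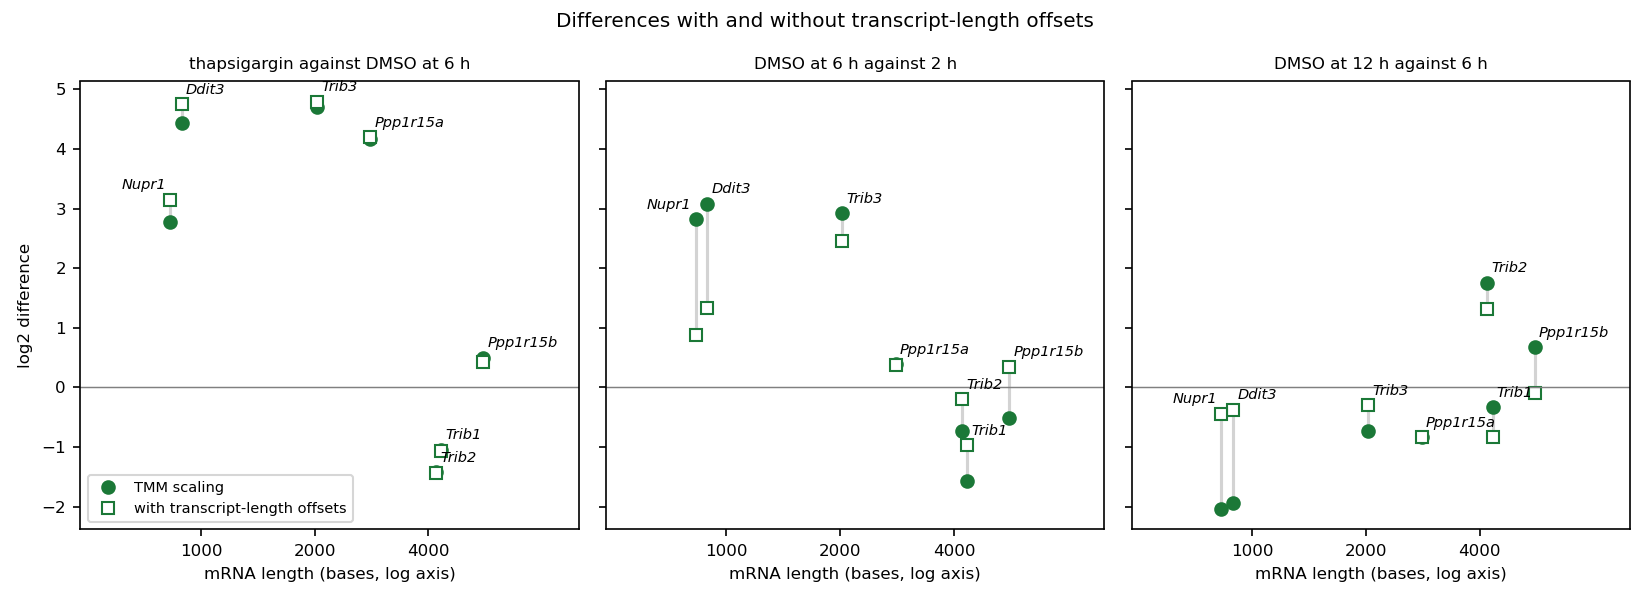
Log2 difference of each gene against the length of its longest coding mRNA (log axis) in 3 comparisons, with filled circles for TMM scaling and open squares for the fit with transcript-length offsets. Offsets move Ddit3 and Nupr1 by over 1.5 log2 units in both DMSO comparisons and by less than 0.5 in the drug comparison at 6 h.

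Upstream and beside CHOP, 9 transcription factors of the ISR and of ER stress were counted. Of these, 4 were called higher and none lower with thapsigargin at 2 h, 8 higher and 1 lower at 6 h, and 7 higher and 1 lower at 12 h. Of all genes, 3.01% were called higher and 1.51% lower at 2 h, 13% and 8.79% at 6 h, and 6.29% and 6.77% at 12 h. The median log2 differences of the 9 were 1.11, 1.67 and 1.45. At 2 h Atf3 (4.30 ± 0.32, adjusted p = 4.95e-06), Atf4 (2.03 ± 0.22, adjusted p = 7.86e-05) and Cebpg, the C/EBP partner of ATF4 (1.80 ± 0.20, adjusted p = 8.13e-05), rose with Ddit3 and Trib3. At 6 h Atf3 (4.51), Cebpg (2.18) and Xbp1 (1.80) led, and at 12 h Atf3 (4.21), Cebpa (-2.74 ± 0.33, adjusted p = 6.51e-05) and Cebpd (2.57). Cebpa encodes C/EBP-alpha, which TRIB1 and TRIB2 target, and its mRNA had 2.37 ± 0.900 CPM with thapsigargin at 12 h and 15.8 ± 0.497 CPM with DMSO (SD, n = 2 each). In recovery against thapsigargin at 6 h, 7 of the 9 factors were lower, beside 13.9% of all genes, and 1, Cebpa, was higher (1.41, adjusted p = 0.00111), beside 11.6%.

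Beside Ppp1r15a, the other parts of the eIF2 phosphorylation cycle were counted. Of 17 genes for the kinases, eIF2 and eIF2B subunits, catalytic phosphatase subunits and related factors, none was called at 2 h by edgeR (2 had an unadjusted p under 0.05), 2 were higher at 6 h and 1 at 12 h, beside 4.52%, 21.8% and 13.1% of all genes called in either direction. The medians were -0.12, 0.07 and 0.09. The called genes were Dnajc3, which encodes the PERK inhibitor p58IPK (1.97 ± 0.27, adjusted p = 9.4e-05, at 6 h, and 2.54 ± 0.33, adjusted p = 0.000106, at 12 h), and Eif2s2, the beta subunit of eIF2 (0.99 ± 0.20, adjusted p = 0.002, at 6 h). The PERK gene Eif2ak3 averaged 37.5 ± 21.3 CPM with thapsigargin at 6 h and 14.7 ± 7.80 CPM with DMSO (SD, n = 3 each) and was not called (1.35 ± 0.55, adjusted p = 0.101). The 3 genes of the catalytic subunit of protein phosphatase 1, Ppp1ca, Ppp1cb and Ppp1cc, had log2 differences between -0.60 and 0.49 at 6 h, none called.

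Among 13 genes of tribbles partners, substrates and relatives, 12 were tested, of which 2 were called at 2 h, 3 at 6 h and 2 at 12 h, beside 4.52%, 21.8% and 13.1% of all genes. At 2 h Stk40, a related pseudokinase gene (1.73 ± 0.16, adjusted p = 1.19e-05), and Det1, a part of the COP1 ligase assembly (0.75 ± 0.17, adjusted p = 0.0164), were higher. At 6 h Det1 (1.26) and Stk40 (1.20) were higher and Akt1, whose kinase TRIB3 is known to bind, was lower (-0.95 ± 0.18, adjusted p = 0.00127). At 12 h Stk40 (1.17) was higher and Akt1 (-0.71, adjusted p = 0.0424) lower. The ligase gene Cop1 was not called at any time, with log2 differences of -0.14, 0.17 and 0.29 at 2, 6 and 12 h. The list medians were -0.13, -0.20 and -0.03.

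Of 9 genes described as CHOP targets, 4 were higher at 2 h, 6 at 6 h and 7 at 12 h, where 1 was lower. Of all genes, 3.01%, 13% and 6.29% were called higher at these times, and 6.77% lower at 12 h. The medians of the 9 were 0.55, 1.80 and 1.25. Chac1, which encodes an enzyme that degrades glutathione, led at 2 h with 501 ± 17.4 CPM with thapsigargin and 3.46 ± 1.19 CPM with DMSO (7.18 ± 0.31, adjusted p = 3.84e-08), and was called again at 6 h (3.66) and 12 h (3.86). Car6, a carbonic anhydrase gene with few counts in DMSO, had 1.51 ± 0.117 CPM at 2 h, 131 ± 37.2 CPM at 6 h and 163 ± 0.917 CPM at 12 h with thapsigargin, against 0.0738 ± 0.0640, 0.0705 ± 0.0446 and 0.0839 ± 0.0534 CPM with DMSO at the same times. Ero1l, an oxidase gene of ER protein folding, was higher at 6 h (2.32 ± 0.25, adjusted p = 1.11e-05) and 12 h (2.91 ± 0.30, adjusted p = 1.64e-05) but was not called at 2 h (0.55, adjusted p = 0.263). Bcl2l11, which encodes the cell death protein BIM, was higher at 2 h (1.82 ± 0.22, adjusted p = 0.000198) and lower at 12 h (-1.19 ± 0.28, adjusted p = 0.00866). Of 6 genes of NUPR1 partners and relatives, the test called 1, Msl1 at 6 h (-1.01 ± 0.29, adjusted p = 0.0197), beside 8.79% of all genes lower at 6 h, and the medians lay between -0.17 and 0.09.

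For each member, the 3 genes with the most similar profile over the 19 libraries were found by Pearson correlation of log2 (CPM + 0.5) among 9902 genes whose mean reached 5 CPM. They are a description only, because all points share libraries, depth and the length trend. Nearest to Ddit3 were Adm2 (r = 0.986), Slc25a33 (0.98) and Endov (0.976), and nearest to Nupr1 were Gne (0.989), Manf (0.964) and Ss18l2 (0.961). Trib3 lay nearest to Sesn2 (0.979), Chac1 (0.977) and Cebpg (0.957), and Ppp1r15a nearest to Cdsn (0.98), Slc3a2 (0.97) and Brd3os (0.967). Among the genes nearest to Trib1 were Ano5 (0.972) and Egr3 (0.971). Trib2 lay nearest to Colec12 (0.967), Ttk (0.965) and Col8a1 (0.955), and Ppp1r15b to Zfp59 (0.974), Gna13 (0.973) and Slc38a2 (0.969). None of the neighbours named was shared by 2 members.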

How the data were processed

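Polyadenylated RNA of the 19 libraries was sequenced by the authors. Per the submitters' processing notes, Trim Galore, STAR 2.5.3a, bedtools 2.31.0 and DESeq2 were used with the mouse build mm10. The deposited files hold raw counts of reads per gene, in whole numbers. A further 5 lines of unassigned reads (ambiguous reads were 5.49% to 8.18% of the total) stayed out of all fits. Neither the counting program nor its strand setting or annotation is given in the sources used here. Of 55401 identifiers, 55141 matched GENCODE M21.

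The 7 members and all gene lists were chosen with earlier results of these data known. Counts were scaled by TMM factors, filtered with filterByExpr by group (18039 genes, among them all 7 members) and fitted with edgeR 4.0.16 (limma 3.58.1, R 4.3.3), in 1 quasi-likelihood model of 7 group means with no replicate block. Tests were two-sided, adjusted by the Benjamini-Hochberg method over all genes and called under 0.05. On simulated counts without a length trend, the fit was tested for the drug effect at 2 and 12 h only. The ratio test was tested on simulated ratios with a known shift. CPM use TMM-scaled sizes. Groups followed the labels' treatment, and a difference in response is the drug effect at 1 time minus that at another. Depth was 17.31 to 40.96 megareads, so that 3 counts equal 0.0732 to 0.173 CPM. Count-based intervals are not given, and precision is that of the replicates. Ratios used exact permutation, written with numpy 2.4.6 (Python 3.11.15). Plots were made with matplotlib 3.10.9. Alternatives were DESeq2 1.42.0, its size factors, total-count scaling, no low-count filter, the replicate block, transcript-length offsets (a natural spline of 4 degrees of freedom on log2 mRNA length per library), the same offsets on the ratios (added after the data were seen), only the groups compared, leaving out the 2 libraries over 10% mitochondrial reads, and leaving out each library.

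In the listed sets, the called genes with the largest log2 differences are named, at most 3 a comparison. Eif2ak3, Cop1, the phosphatase catalytic genes, Bcl2l11 at 12 h and Cebpa in recovery were named after their values were seen. Nupr2 of the NUPR1 list is Nupr1l in the files' annotation. A gene with a profile similar to that of Trib1 is not reported here.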

Additional observations from a re-analysis of the deposited data

Results flagged for a closer look

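Ppp1r15a and Trib3 were singled out because their response to thapsigargin differed between 6 h and 2 h in a test of the difference itself (edgeR's quasi-likelihood interaction contrast over 18039 genes). For Ppp1r15a the log2 response at 6 h exceeded that at 2 h by 2.16 (adjusted p = 0.0171), with responses of 4.17 at 6 h and 2.01 at 2 h. With the replicate block and transcript-length offsets together it was 2.26 and the adjusted p 0.0546. For Trib3 the log2 response at 6 h minus that at 2 h was -1.48 (adjusted p = 0.0397), with responses of 4.71 at 6 h and 6.19 at 2 h. In each gene all thapsigargin libraries lay above all DMSO libraries at both times. No group of 4 or more libraries exists, so single libraries were not tested for standing apart.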

How the results depend on the processing

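The calls of Ddit3, Trib3 and Ppp1r15a against DMSO at 2 and 6 h held under all alternatives, and both ratios kept direction and threshold in all 38 of theirs, of which the 2 with transcript-length offsets were chosen after the data were seen. Of the single-gene values under alternatives, 862 kept direction and side of the threshold, 44 lost a call, 40 gained one and 48 changed sign, none of these 48 called in the main analysis. The causes of these changes were not tested. Total-count scaling moved the median of all genes by 0.21 (thapsigargin against DMSO at 2 h), 0.13 (at 6 h), -0.17 (recovery against thapsigargin), -0.12 (response at 12 h against 6 h) and 0.29 (DMSO at 12 h against 6 h). At 2 h it called 470 genes higher and 48 lower, against 543 and 273 with TMM.

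Members called in the difference in response at 6 h against 2 h numbered 2 in the main analysis, 1 with total-count scaling, with the replicate block or in only the groups compared, and 4 with transcript-length offsets or without the libraries of high mitochondrial share. Members called in recovery against DMSO numbered 0, and 1 with DESeq2, with offsets or without the high-mitochondrial libraries. For DMSO at 12 h against 6 h they numbered 2, 4 with DESeq2, and 6 in only the groups compared or without the high-mitochondrial libraries. For recovery against thapsigargin they numbered 5, and 2 in only the groups compared. Leaving out 1 library at a time gave 0 to 3 (response at 6 h against 2 h), 1 to 3 (DMSO at 12 h against 6 h) and 3 to 5 (thapsigargin at 12 h, 6 in the main analysis).

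Values that changed sign were these. For thapsigargin against DMSO at 2 h, Trib1 was 0.25 with total-count scaling, 0.0072 without the low-count filter, 0.015 with the replicate block, 0.031 in only the groups compared and 0.42 without the high-mitochondrial libraries. Trib2 was 0.18 with total-count scaling, 0.0078 in only the groups compared and 0.021 without the high-mitochondrial libraries. For recovery against DMSO at 6 h, total-count scaling gave -0.027 for Nupr1, -0.071 for Ppp1r15a and 0.0079 for Ppp1r15b. Leaving out the high-mitochondrial libraries gave -0.78 for Ddit3, -0.61 for Nupr1, -0.45 for Ppp1r15a and 0.26 for Ppp1r15b. The response of Ppp1r15a at 12 h against 6 h was -0.065 with total-count scaling, and that of Ppp1r15b was 0.16 with offsets, with or without the replicate block. Ppp1r15b with offsets was 0.35 for DMSO at 6 h against 2 h (0.36 with the block) and -0.092 for DMSO at 12 h against 6 h (-0.12 with the block).

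With 1 library left out, uncalled values spanned 0 as follows. At 2 h Trib1 lay between -0.16 and 0.35 and Trib2 between -0.065 and 0.0012. The response at 6 h against 2 h lay between -0.40 and 0.78 for Ddit3. The response at 12 h against 6 h lay between -1.12 and 0.055 for Ddit3, -0.56 and 0.27 for Nupr1, -0.19 and 0.26 for Ppp1r15a, and -0.23 and 0.15 for Ppp1r15b. Recovery against DMSO at 6 h lay between -0.75 and 1.37 for Ddit3, -0.58 and 0.74 for Nupr1, -0.13 and 0.43 for Trib2, -0.42 and 0.45 for Ppp1r15a, and -0.40 and 0.28 for Ppp1r15b.

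Whether replicate numbers pair the samples was checked but not settled. Of 19 same-number pairs of libraries, 3 had deviations from their group means correlated above 0.1 (r from -0.938 to 0.932), and 4 correlated best with their own number. Libraries of unlike number also correlated, with r = 0.938 for thapsigargin 6 h replicate 1 and DMSO 6 h replicate 2. Deviations in groups of 2 libraries mirror each other, so this check cannot decide about pairing. With the replicate block, the calls of Nupr1 at 2 h (adjusted p = 0.0659) and of the response of Trib3 at 6 h against 2 h (adjusted p = 0.0684) were lost. With the block and offsets together, the response of Ppp1r15a at 6 h against 2 h (adjusted p = 0.0546) and Nupr1 for DMSO at 12 h against 6 h (adjusted p = 0.443) were lost, and 3 members, all with a negative difference, were called in the difference in response.

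Counts of all genes called moved by over 1.5 times as follows. For thapsigargin at 2 h the 816 became 518 with total-count scaling, 1635 with DESeq2, 2404 in only the groups compared, 1859 without the high-mitochondrial libraries and 320 to 670 with 1 library left out. At 6 h the 3926 became 6588 without the high-mitochondrial libraries. At 12 h the 2356 became 1546 with total-count scaling, 8847 in only the groups compared, 4539 without the high-mitochondrial libraries and 1124 to 1211 with 1 left out. For recovery against thapsigargin the 4601 became 1403 in only the groups compared. For recovery against DMSO the 59 became 17 with total-count scaling, 398 with DESeq2, 103 with offsets, 0 in only the groups compared, 377 without the high-mitochondrial libraries and 22 to 125 with 1 left out. The 719 of the response at 6 h against 2 h became 321, 1512, 1085 and 1975 with total-count scaling, DESeq2, offsets and without the high-mitochondrial libraries, and 421 to 793 with 1 left out. The 103 of the response at 12 h against 6 h became 30, 421, 171 and 732 in the same order, and 12 to 104. For DMSO at 12 h against 6 h the 6393 became 4090 with offsets, 2812 with offsets and the block, 10088 without the high-mitochondrial libraries and 1529 to 6606 with 1 left out.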
